A study of Mus musculus with 6 samples.

Results

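The 10 genes described here encode the TGF-beta ligands Tgfb1, Tgfb2 and Tgfb3, the activin A subunit Inhba, the receptors Tgfbr1, Tgfbr2 and Acvrl1, the coreceptors Tgfbr3 (betaglycan) and Eng (endoglin), and the inhibitor Smad7. They were chosen by gene symbol, and all 10 were found among the 34099 genes of the count matrices. The series compared liver tumors of 3 stress mice with those of 3 control mice and asked how chronic stress goes along with changes in the tumor and its surroundings. All were young adult male wild-type C57BL/6J mice that carried tumors of H22, a murine HCC cell line, grown in the liver. The stress mice had gone through chronic unpredictable mild stress (CUMS), a changing program of mild stressors, before they received the tumor cells, and the control mice were kept in standard housing. Each tumor was dissociated without sorting and gave 1 10x Genomics library, so the mice are the replicates and all tumor cells stem from a single transplanted line. The unique molecular identifiers (UMIs), tags that count each captured RNA molecule once, were summed per mouse over each cell type of the authors' annotation. Levels are given as CPM, the UMIs of a gene per 1000000 UMIs of that sum. Values of single mice are listed by mouse number, and levels are compared between cell types of 1 gene, not between genes.

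TGF-beta ligands are secreted in a latent form and, once freed, bind the type II receptor Tgfbr2, which brings in the type I receptor Tgfbr1 and sends SMAD proteins to the nucleus. Endothelial cells (ECs) can use Acvrl1 (ALK1) as a further type I receptor together with endoglin, and human mutations in either gene cause hereditary hemorrhagic telangiectasia, a disease of fragile vessels. In the liver the pathway is best known for driving hepatic stellate cells (HSCs) to deposit matrix, for restraining T cells and for shaping the vessel wall.

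The annotation kept 58794 of 61374 barcodes in 10 cell types and 28 clusters, and these cells carried 149558935 to 187728350 UMIs per mouse with a median of 7166 to 20478 UMIs per cell. The libraries shared 13 to 40 cell barcodes per pair, at most 0.424% of the smaller library, and 3.22% to 6.45% of the cells of a mouse were called doublets and kept. The matrix headers name Cell Ranger 9.0.0 in the files of control mice but 7.1.0 in those of stress mice, so stress and the software version cannot be told apart. Of the marker genes listed for each type, ECs had 5 of 5 at their highest mean, HSCs, NK/T cells and dendritic cells (DCs) 3 of 3, B cells 2 of 2 and monocytes 3 of 4. Inflammatory myeloid cells had 2 of 4, neutrophils 2 of 3, tumor cells 1 of 3 and M-MDSCs 0 of 3, so the last name is used here only as the annotation's label. Of the 4 monocyte markers, Adgre1, Csf1r and C1qa were highest in monocytes, and Ly6c2 had 211 CPM there against 729 CPM in neutrophils. Monocytes is likewise the annotation's name for this class. The tumor markers Krt8 and Epcam had their highest means in HSCs, at 300 and 166 CPM against 5.66 and 145 CPM in tumor cells. What part this has in the levels of HSCs was not tested. HSCs numbered 128 cells and neutrophils 175, and since single mice gave only 6 and 4 of these cells, both were described but not tested. The names of the cell types rest on clustering these cells by their own RNA, so the order of levels between types is given as a description without a test.

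The ligands had different leading sources. Tgfb1, the most widely studied ligand and a brake on T cells, was highest in monocytes, with a lowest, median and highest mouse of 127, 229 and 322 CPM. NK/T cells followed with 119, 148 and 180.3 CPM, and monocytes were above NK/T cells in 4 of 6 mice. The ranges of neighbouring cell types in the Tgfb1 order overlapped throughout, from ECs (81.9 to 121 CPM) and DCs (63.7 to 109.7 CPM) to M-MDSCs (36.2 to 56.7 CPM). Tumor cells had the lowest mean, with 30.4 to 39.5 CPM, yet as the largest and deepest population they held 55.4% of all Tgfb1 UMIs in annotated cells.

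**Figure D1:**
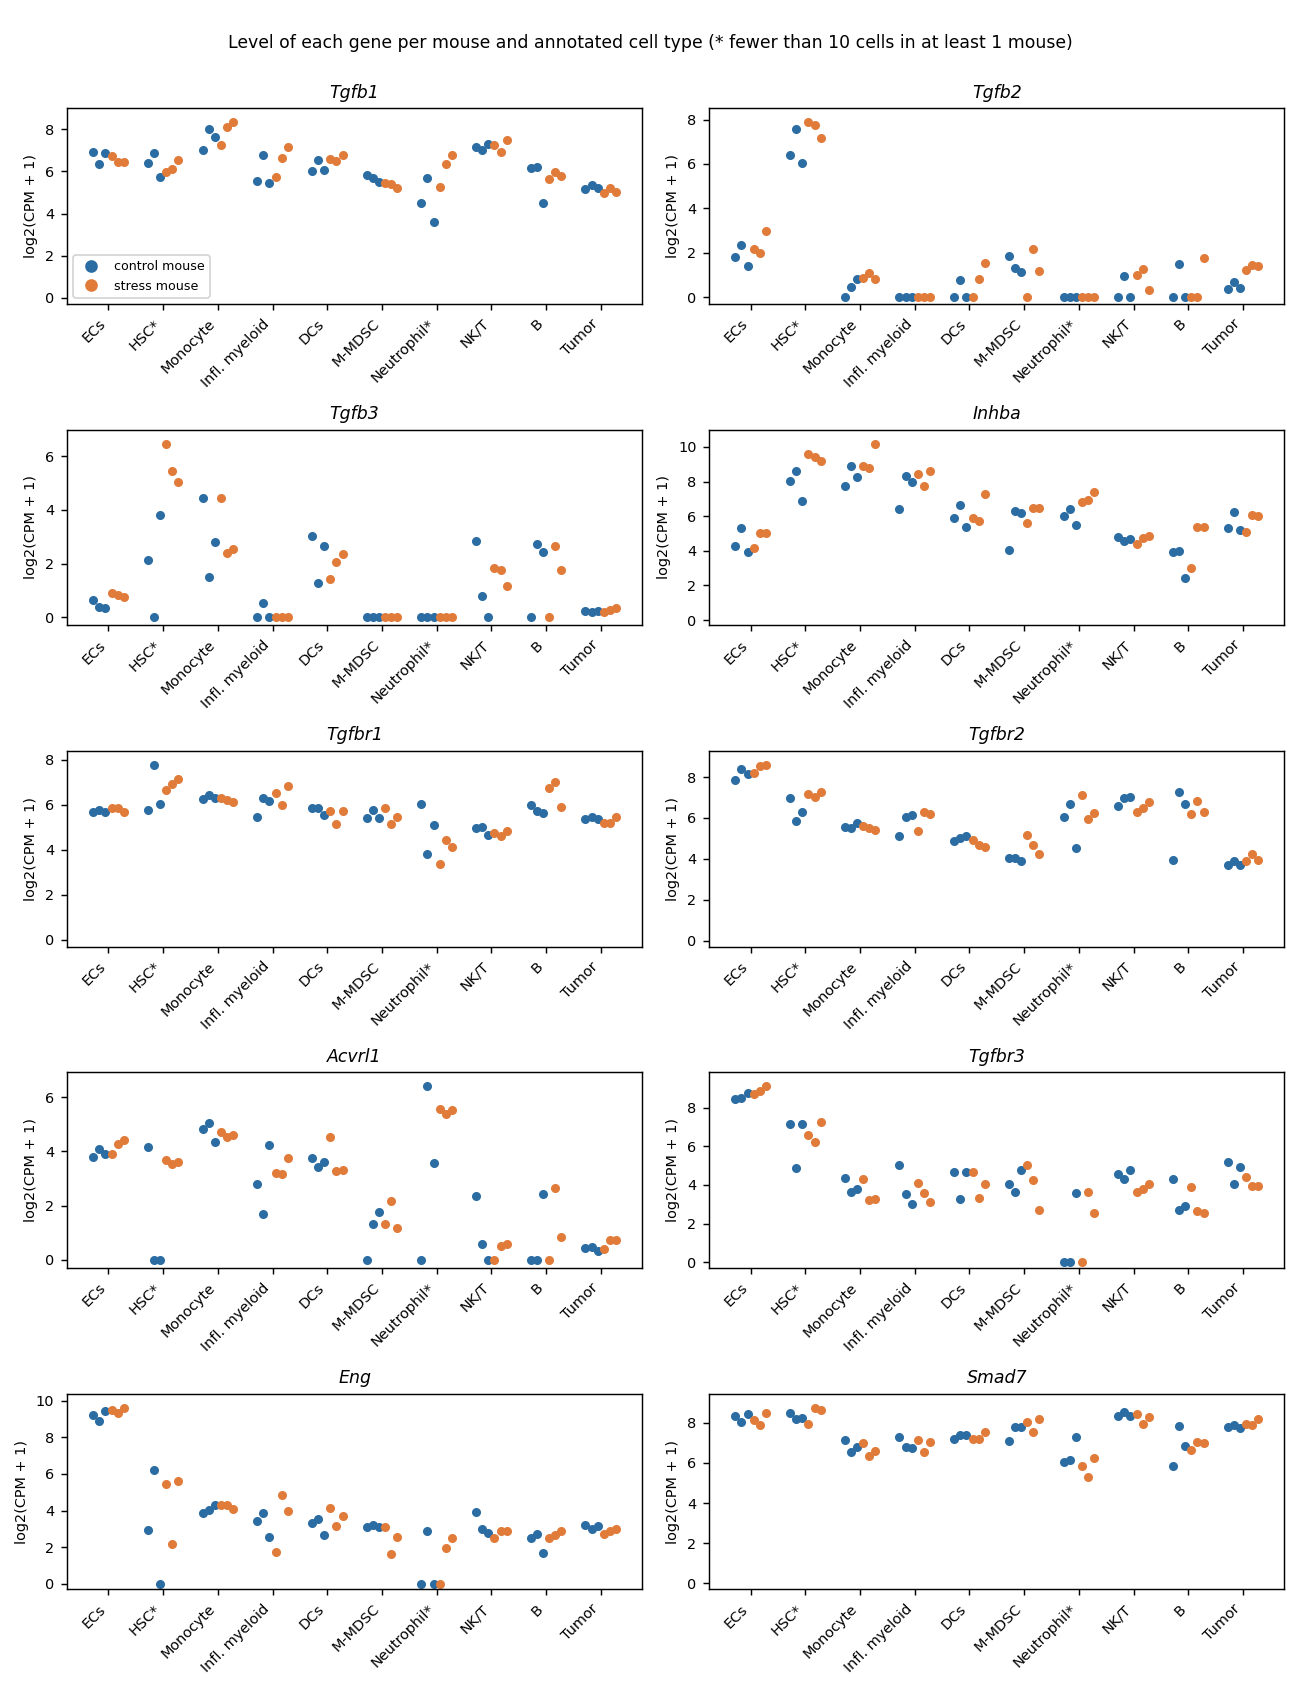
Levels of the 10 genes as log2(CPM + 1) in each annotated cell type, with 1 point per mouse (blue for control, orange for stress) and asterisks on the types left out of testing for having under 10 cells in some mouse. The 6 EC points of Eng, Tgfbr2 and Tgfbr3 lie above the points of every other type, and the 6 HSC points of Tgfb2 do likewise.

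Tgfb2, a ligand prominent in mesenchymal cells, was led by HSCs, the type that also had the highest means of Krt8 and Epcam. Its HSC values had a lowest, median and highest mouse of 64.8, 165 and 234 CPM, from 319 UMIs in 128 cells, and did not overlap with those of ECs, the next type, at 1.67 to 6.86 CPM. All other types had means of at most 1.69 CPM, that of M-MDSCs. Tgfb2 was not detected in 6307 inflammatory myeloid cells, which allows a share of cells with a UMI of up to 0.0476%, nor in 175 neutrophils, which allows up to 1.71% (counting error only, from a floor of 3 counts). After each cell was thinned to 1000 UMIs, 12.5% of HSCs and 0.360% of ECs still had a Tgfb2 UMI.

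Tgfb3, the third ligand, had few UMIs in any type, and its order is loose. Monocytes ranged from 1.85 to 20.9 CPM, DCs from 1.39 to 7.08 CPM and ECs from 0.279 to 0.860 CPM. HSCs ranged from 0 to 87.4 CPM on 77 UMIs. Tgfb3 had 0 UMIs in 350 M-MDSCs and in 175 neutrophils, which allows shares of up to 0.857% and 1.71% of cells. Within monocytes, Tgfb3 sat mostly in 1 of the 3 clusters. Cluster 11 had 24.5 CPM on 240 UMIs, cluster 13 had 2.41 CPM and cluster 12 had 0.198 CPM.

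Inhba, whose product forms activin A, was high in monocytes, HSCs and inflammatory myeloid cells. Its lowest, median and highest mouse were 209, 457 and 1157 CPM in monocytes, 117, 483 and 770.0 CPM in HSCs and 85.7, 286 and 384 CPM in inflammatory myeloid cells. These 3 ranges overlapped, and monocytes were above inflammatory myeloid cells in 6 of 6 mice. Tumor cells (32.7 to 73.6 CPM), ECs (14.0 to 38.1 CPM) and NK/T cells (19.9982 to 27.9 CPM) were all below the lowest monocyte value. After thinning, 25.1% of monocytes, 15.3% of inflammatory myeloid cells and 0.972% of NK/T cells had an Inhba UMI, at unthinned median depths of 5291, 1547 and 4403 UMIs per cell.

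The 3 monocyte clusters differed for Inhba in every mouse. Cluster 13 had 327, 1012 and 521 CPM in control against 921, 1382 and 2303 CPM under stress. Cluster 11 had 62.7, 440.1 and 107 CPM in control against 241, 438 and 849 CPM under stress, and cluster 12 had 19.9, 98.7 and 72.4 CPM in control against 191, 113 and 342 CPM under stress. The order 13, 11, 12 thus held within each of the 6 mice. Tgfb1 ran differently, with means of 301 CPM in cluster 12, 209.6 CPM in cluster 11 and 178 CPM in cluster 13. The DC clusters also parted, with a mean Inhba level of 112 CPM in cluster 19 and 14.7 CPM in cluster 20, and Acvrl1 at 6.69 and 23.0 CPM in the same order. In cluster 19 the 3 tumor markers Krt8, Krt18 and Epcam summed to 458 CPM, within the 388 to 781 CPM of the tumor clusters, against 52.7 CPM in cluster 20, and 37.1% of its cells were called doublets against 2.32%. Its median depth was 899 to 1564 UMIs in 5 mice and 21873 UMIs in stress mouse 2, and what part tumor cell RNA has in its levels was not tested. These clusters were cut from the same RNA, so the differences describe them and were not tested.

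Among the signaling receptors, Tgfbr2 was led by ECs and Tgfbr1 was spread over all types. The type II receptor gene Tgfbr2 had a lowest, median and highest mouse of 229.7, 313 and 382 CPM in ECs, above every mouse of every other type. HSCs came next with 57.5 to 154 CPM, then NK/T cells with 76.4 to 129.7 CPM, and tumor cells were lowest with 11.8 to 17.9 CPM. Below ECs each type overlapped with the next in the Tgfbr2 order, except that monocytes (42.0 to 53.7 CPM) lay above DCs (22.6 to 33.7 CPM) without overlap. ECs held 57.2% of the Tgfbr2 UMIs.

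The means of Tgfbr1, the type I receptor gene, ran from 26.0 CPM in neutrophils to 116 CPM in HSCs, and ECs were tight around 53.3 CPM, with a range of 50.4 to 57.6 CPM. Each type overlapped with the next in the Tgfbr1 order, except that tumor cells (35.0 to 43.3 CPM) lay above NK/T cells (23.1 to 31.3 CPM) without overlap. Acvrl1, the ALK1 gene, was low everywhere, and neutrophils had the highest mean on 52 UMIs, at 0 to 83.4 CPM. Among the tested types monocytes led with 19.3, 24.3 and 31.9 CPM and were above ECs, at 12.9, 15.1 and 20.5 CPM, in 6 of 6 mice, although the ranges overlapped. EC cluster 16, described below, lowers the EC values, with 3.87 CPM against 24.0 CPM in EC cluster 2. The count of mice was not recomputed without it. Without called doublets the means were 29.9 CPM in monocytes and 21.4 CPM in ECs. Tumor cells had 0.252 to 0.675 CPM of Acvrl1. Monocyte cluster 11 carried most of it, with 35.9 CPM against 10.8 and 20.6 CPM in clusters 12 and 13.

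Both coreceptor genes were endothelial by level. Endoglin (Eng) had 588, 479 and 679 CPM in control against 716, 633 and 775 CPM under stress in ECs, a mean of 645 ± 104 (SD, n = 6). The next types were HSCs with 0 to 71.8 CPM and monocytes with 13.6 to 19.0 CPM. Monocytes had a median over mice of 2.71% of the EC level of Eng, beside 1.75% for Cdh5, 1.71% for Kdr, 1.497% for Stab2, 1.39% for Ptprb and 8.20% for Pecam1, the 5 EC markers. Without called doublets the mean Eng level of monocytes went from 16.8 to 11.2 CPM. What part RNA from ECs has in the Eng level and fold change of monocytes was not tested. With called doublets kept, the EC mean was 38.4 times that of monocytes, and ECs held 86.6% of all Eng UMIs. After thinning, 54.4% of ECs and 0.808% of tumor cells had an Eng UMI, at unthinned median depths of 4538 and 27716 UMIs.

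Tgfbr3, which presents TGF-beta2 to the receptors and binds inhibin, had 352, 364 and 429 CPM in control against 423, 468 and 548 CPM under stress in ECs. HSCs followed with 28.7 to 153 CPM and tumor cells with 14.4 to 35.6 CPM. No mouse of another type reached the lowest EC value, and the EC mean was 19.8 times that of tumor cells. With Tgfbr2, Eng and Tgfbr3 shared this separation of ECs, and the other 7 genes did not.

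The 2 EC-led genes that have an entry in the promoter table used here, Eng and Tgfbr2, are shown by the 250 bases before their start, from RefSeq on GRCm38.p6, because ECs led both. The region of Eng is chr2:32646345-32646594 on the plus strand and that of Tgfbr2 is chr9:116175364-116175613 on the minus strand, both written 5′ to 3′ in the direction of the gene. Capitals mark AGGAAG or its reverse complement, a string that holds the GGAA core of ETS factors, a family with known roles in endothelial genes.
Eng: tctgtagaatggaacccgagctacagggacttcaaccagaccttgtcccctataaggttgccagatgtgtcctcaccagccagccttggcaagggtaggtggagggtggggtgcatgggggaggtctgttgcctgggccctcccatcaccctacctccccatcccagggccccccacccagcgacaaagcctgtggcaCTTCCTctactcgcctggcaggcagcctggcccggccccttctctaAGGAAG
Tgfbr2: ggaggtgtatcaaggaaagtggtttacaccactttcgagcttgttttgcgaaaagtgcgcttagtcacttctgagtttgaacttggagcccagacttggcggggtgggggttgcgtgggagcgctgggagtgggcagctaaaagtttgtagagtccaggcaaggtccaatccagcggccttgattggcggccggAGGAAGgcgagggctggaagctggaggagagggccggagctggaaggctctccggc
AGGAAG was found on either strand 2 times before Eng and 1 time before Tgfbr2. It is common, in 29.5% of 32851 promoters of this length, and it was also present in the region of Tgfb1. The string CAGACA, which holds the CAGA core of SMAD boxes, was found in 17.1% of all promoters and among the 6 genes searched in that of Tgfb2. GGCGCC, a GC-rich string, was found in 9.59% of all promoters and among the 6 in that of Tgfbr1. No 2 marked strings overlapped, and a match describes letters in this window.

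ECs themselves fell into 7 clusters that differed in these genes. Eng was highest in clusters 18 and 2, with means of 1007 and 969 CPM, followed by cluster 8 with 759.8 CPM. Cluster 18 also had the highest Tgfbr2, 692 CPM against 386 CPM in cluster 2, and the highest Tgfb2, 24.1 CPM on 156 UMIs. Tgfbr3 was highest in clusters 2 and 8, with 624 and 590.2 CPM, against 479 CPM in cluster 18. Cluster 16 was low in Eng, Tgfbr2 and Tgfbr3, with 156 CPM of Eng, 82.6 CPM of Tgfbr2 and 119 CPM of Tgfbr3. In its cells the 3 tumor markers summed to 368 CPM, against 22.2 CPM in cluster 2 and 388 to 781 CPM in the tumor clusters, and the 5 EC markers to 1231 CPM against 7576 CPM in cluster 2. The doublet caller marked 48.6% of cluster 16, and its median depth ran from 2275.5 to 24171 UMIs over the mice. What part tumor cell RNA has in its levels was not tested. The main EC clusters 2 and 8 had 5.53 and 9.07 CPM of Inhba, and cluster 16, at 53.3 CPM, held 1117 of the 1892 Inhba UMIs of ECs. Cluster 24 stood out for Inhba, with 146 CPM against 10.4 CPM in cluster 18, on 229 cells of which 94.8% were called doublets. Without the cells called doublets the EC means were 882 CPM for Eng, 579 CPM for Tgfbr3 and 424 CPM for Tgfbr2, and ECs still led these 3 genes, while the EC mean of Inhba went from 25.2 to 6.49 CPM.

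**Figure D2:**
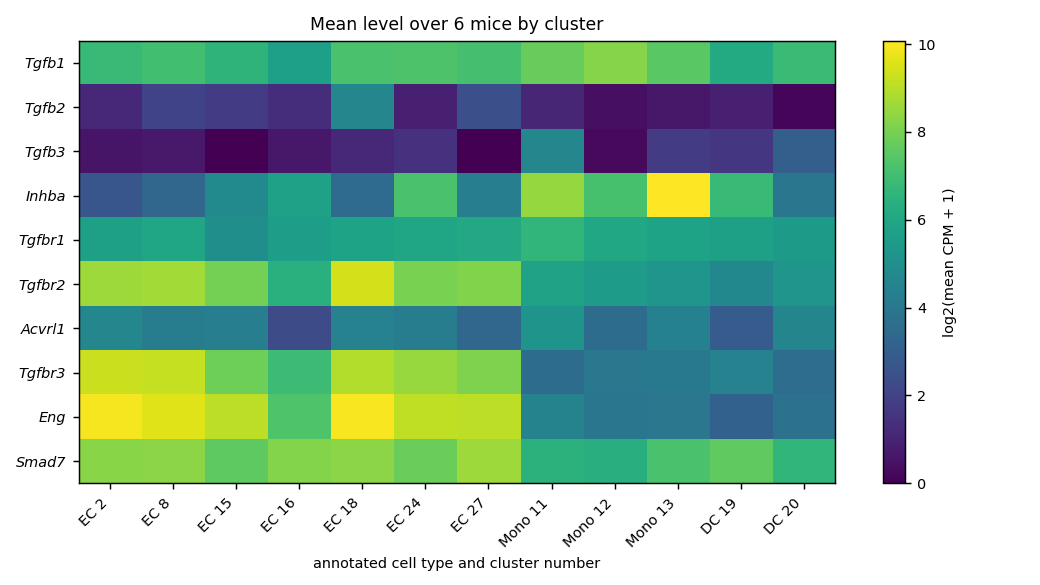
Mean level over the 6 mice as log2(mean CPM + 1), by colour, for the 10 genes (rows) in the 7 EC, 3 monocyte and 2 DC clusters (columns). Eng, Tgfbr2 and Tgfbr3 are high in the EC clusters apart from cluster 16, and Inhba is highest in monocyte cluster 13.

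Smad7, which is induced by TGF-beta and blocks its receptor, was broadly present. HSCs (246 to 426 CPM), NK/T cells (244 to 363 CPM), ECs (238 to 355 CPM) and tumor cells (211 to 289.9 CPM) overlapped. Monocytes (81.4 to 139 CPM) lay below all mice of those 4 types. The share of cells with a Smad7 UMI after thinning was 29.0% in NK/T cells and 6.84% in monocytes.

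Across the 48 sums of 8 tested cell types and 6 mice, the genes whose log2(CPM + 1) ran most like a member, out of 9005 genes, are given with Pearson's r as a description, since the points share libraries and cell types. Eng ran most like Cemip2 (0.976), Fgd5 (0.973) and Robo4 (0.970), of which Fgd5 and Robo4 are known endothelial genes. Tgfbr3 ran most like Meis2 (0.942), Cavin2 (0.928) and Plpp1 (0.921), and Tgfbr2 most like Itgb3 (0.924), S1pr1 (0.916) and Stag2 (0.900). Between members, Eng and Tgfbr3 had an r of 0.883 and Eng and Tgfbr2 an r of 0.667. Inhba ran most like Vegfa (0.921), Tnfaip2 (0.899) and Prdx5 (0.898), where Vegfa encodes the main angiogenic growth factor. Tgfb1 ran most like Capzb (0.902), Hif1a (0.895) and Trps1 (0.876), and Hif1a encodes a regulator of the response to low oxygen. Acvrl1 ran most like Ifi207 (0.908), Ifitm3 (0.902) and Vav3 (0.896), and Smad7 most like 4833420G17Rik (0.881), Farp1 (0.862) and Tusc3 (0.858). The best matches of Tgfbr1 (Eepd1 (0.827), Irf2bp2 (0.791) and Trib1 (0.783)), Tgfb2 (Twf1 (0.774), Dpy19l4 (0.761) and Smim15 (0.758)) and Tgfb3 (Ms4a4c (0.777), Evl (0.755) and Ms4a6c (0.753)) were looser.

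The comparison of stress with control mice used edgeR's quasi-likelihood test on the summed counts of each of the 8 tested cell types, with Benjamini-Hochberg adjustment over all genes tested there and a threshold of 0.05. The members entered 62 tests, of which 3 passed, 1 higher and 2 lower in stress mice, all in tumor cells, and 10 had an unadjusted p under 0.05. Of these 10, 5 were among the 10 tests in tumor cells, where 7059 of 18856 genes had such a p. M-MDSCs, monocytes, NK/T cells, DCs and B cells had 1 each. In the same order 903 of 9443, 1470 of 12251, 1469 of 11196, 1789 of 10533 and 646 of 5796 genes did. In tumor cells 3 of 10 members passed, where 21.4% of all 18856 genes did, 12.0% higher and 9.46% lower. In the other types no member passed, against a background of 0.213% of genes in ECs, 0.122% in monocytes, 0.857% in NK/T cells, 2.64% in DCs, 0.561% in M-MDSCs, 0% in inflammatory myeloid cells and 0.483% in B cells. The median log2 fold change of the members was 0.02 in tumor cells, 0.25 in ECs and -0.05 in monocytes, beside -0.01 over all genes in each of the 3. It was 0.49 in inflammatory myeloid cells, 0.17 in DCs, 0.06 in B cells, -0.11 in M-MDSCs and -0.12 in NK/T cells. Over all genes these types had medians of -0.02 to 0.002. Whether an effect differed between cell types was not tested.

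**Figure D3:**
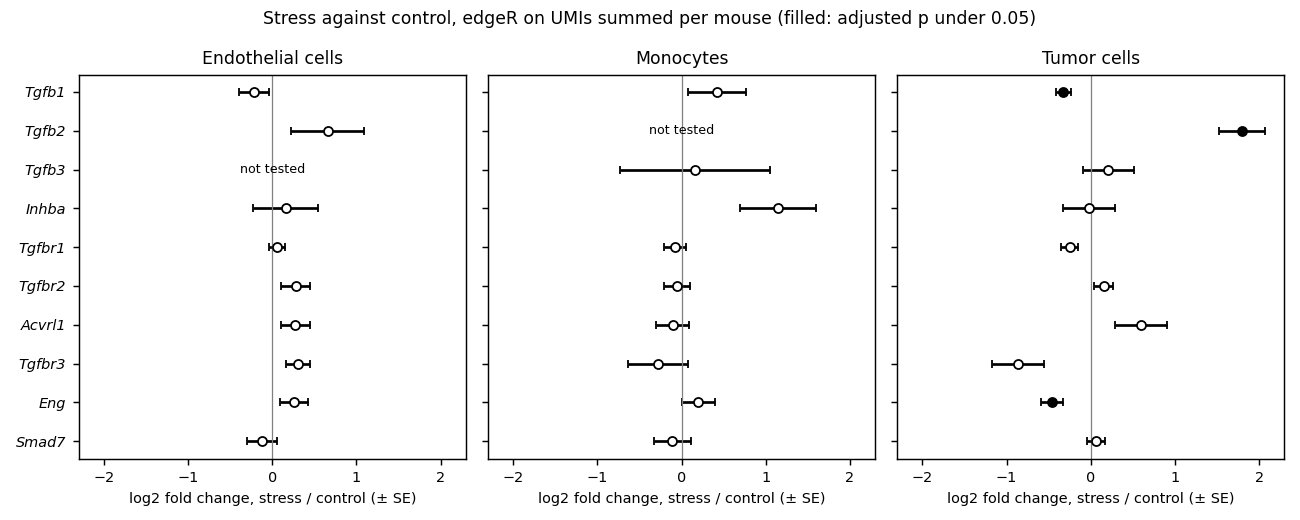
Log2 fold change of stress over control (x axis, with bars of 1 standard error) for the genes tested in ECs, monocytes and tumor cells, where filled points passed the threshold. Tgfb3 in ECs and Tgfb2 in monocytes are marked as not tested. Tgfb2 in tumor cells, at 1.80, is the farthest to the right, and Tgfb1 and Eng in tumor cells are the other 2 filled points.

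Tgfb2 rose in tumor cells of stress mice from a very low level. It had 0.305, 0.586 and 0.339 CPM in control against 1.34, 1.75 and 1.63 CPM under stress, on 52, 89 and 55 UMIs and on 185, 210 and 169 UMIs. Every stress mouse was above every control mouse. The log2 fold change was 1.80 (SE 0.27, edgeR adjusted p = 0.00703), and it passed under every alternative run, with adjusted p between 4.82e-08 and 0.0370. The share of tumor cells with a Tgfb2 UMI was 0.664%, 1.45% and 0.988% in control and 3.39%, 4.37% and 4.03% in stress mice. The median UMIs per tumor cell were 21971, 26149 and 32523 in control and 32080.5, 31343 and 31042 in stress mice. The median mitochondrial share of UMIs per tumor cell was 3.59%, 3.87% and 4.59% in control and 5.30%, 5.61% and 5.25% in stress mice, without overlap, and its part in this and the other tumor cell differences was not tested. Thinned to 1000 UMIs, only 1, 3 and 3 control and 8, 7 and 7 stress tumor cells kept a Tgfb2 UMI.

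This level was close to that of immune cells. Over the 7 immune cell types pooled, Tgfb2 had 0.174, 0.650 and 0.483 CPM in control against 0.566, 1.16 and 0.828 CPM under stress, on 1 to 31 UMIs per mouse. The tumor cell values of control mice overlapped with these, those of stress mice lay above them, and the pooled immune values of stress mice overlapped with those of control mice. The pool includes M-MDSCs, many of them called doublets, and DC cluster 19, which carried tumor markers. Each gave 14 of its Tgfb2 UMIs. M-MDSCs gave the only 1 in control mouse 1 and 3 of the 6 in control mouse 3. What part tumor cell RNA has in the pooled level was not tested. The 3 HSC markers (Dcn, Col1a1 and Rgs5, of which Rgs5 had 0 UMIs in control mouse 3 and stress mouse 1) summed to 0.394 to 0.967 CPM in tumor cells of control mice and to 0.817 to 2.47 CPM in those of stress mice. Against the means of HSCs, tumor cells had 0.0136% of Col1a1, 0.00773% of Dcn and 0.641% of Tgfb2. What part RNA from other cells has in the Tgfb2 difference was not tested beyond these values.

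**Figure D4:**
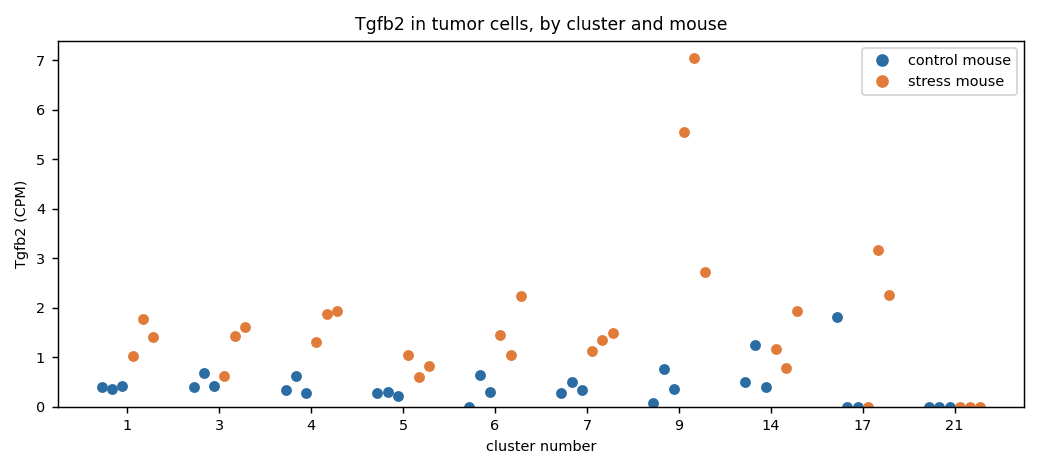
Tgfb2 in CPM (y axis) by tumor cell cluster (x axis), with 1 point per mouse, blue for control and orange for stress. In clusters 1, 4, 5, 6, 7 and 9 all 3 orange points lie above all 3 blue points, and the highest, 7.04 CPM, is a stress mouse in cluster 9.

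By cluster, Tgfb2 was higher in all 3 stress mice than in all 3 control mice in clusters 1, 4, 5, 6, 7 and 9, and overlapped in clusters 3, 14 and 17. Cluster 21 had no Tgfb2 UMI. These clusters come from the same mice, and over all tumor cells 28.2% of genes were higher in stress without overlap. The share of genes in each cluster was not computed. Cluster 9 had 0.0753, 0.760 and 0.362 CPM in control against 5.55, 7.04 and 2.71 CPM under stress, on 1, 7 and 4 UMIs and on 51, 45 and 17 UMIs. It held 27.6%, 21.4% and 10.1% of the tumor Tgfb2 UMIs of stress mice 1, 2 and 3 and 10.4%, 7.91% and 9.23% of their tumor cells. Without cluster 9, an alternative chosen after seeing the data, the log2 fold change was 1.58 (edgeR adjusted p = 0.0125).

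Tgfb1 fell slightly in tumor cells of stress mice. It had 35.4, 39.5 and 36.6 CPM in control against 30.4, 36.7 and 31.2 CPM under stress, and the groups overlapped because stress mouse 2 was above control mice 1 and 3. The log2 fold change was -0.32 (SE 0.09, edgeR adjusted p = 0.0341). The call was lost without control mouse 1 or 3 or without stress mouse 1 or 3 (adjusted p 0.0776, 0.117, 0.0881 and 0.0872). The log2 fold changes in these fits were -0.36, -0.33, -0.32 and -0.28. The call was also lost with scaling by total UMIs, which moved the median of all genes in tumor cells to 0.13 and left Tgfb1 at -0.18 (adjusted p = 0.266).

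Elsewhere the ligands did not pass. In monocytes Tgfb1 had 127, 259 and 199.6 CPM in control against 150.1, 280.3 and 322 CPM under stress with a log2 fold change of 0.42 (SE 0.34, edgeR adjusted p = 0.640). In NK/T cells the Tgfb1 fold change was 0.17 (SE 0.19, edgeR adjusted p = 0.762) and in ECs -0.22 (SE 0.18, adjusted p = 0.581). No label pairs the mice, but same-numbered mice deviated together in monocytes. Paired by number, Tgfb1 in monocytes was higher in stress in 3 of 3 pairs. It did not pass with the replicate block either (log2 fold change 0.40, edgeR adjusted p = 0.177). Tgfbr3 and Smad7 were higher in 0 of 3 pairs and did not pass with the block (log2 fold change -0.33 and -0.11, edgeR adjusted p 0.360 and 0.573), and the other 6 members tested in monocytes had pairs of both signs. In M-MDSCs, where 7.33% of genes were lower in stress without overlap, Tgfb1 was 1 of them among 7 members, with 56.7, 51.0 and 43.8 CPM in control against 42.5, 42.0 and 36.2 CPM under stress (edgeR adjusted p = 0.696). Tgfb2 in ECs had 2.55, 4.10 and 1.67 CPM in control against 3.44, 2.98 and 6.86 CPM under stress and a log2 fold change of 0.66 (SE 0.44, edgeR adjusted p = 0.499), and Tgfb3 in monocytes had 0.16 (SE 0.89, adjusted p = 0.953). Tgfb3 was too low to enter the test in ECs, where it had 0.546, 0.309 and 0.279 CPM in control against 0.860, 0.789 and 0.686 CPM under stress, without overlap but on 3 to 11 UMIs per mouse.

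Inhba in monocytes had 209, 475 and 309 CPM in control against 480.1, 439 and 1157 CPM under stress. Stress mouse 3 was far above the rest, and control mouse 2 lay among the stress mice. The log2 fold change was 1.14 (SE 0.45) and did not pass (edgeR adjusted p = 0.377, 0.152 with the replicate block and 0.120 to 0.810 over all alternatives). Without stress mouse 3 it was 0.50. In cluster 12 alone, the lowest of the 3 monocyte clusters for Inhba, every stress mouse was above every control mouse, and in clusters 11 and 13 the groups overlapped. Over all monocytes 6.82% of genes were higher in stress without overlap, and the share in each cluster was not computed. Inflammatory myeloid cells had a log2 fold change of 0.65 (SE 0.60, edgeR adjusted p = 0.994) and ECs, where cluster 16 holds most Inhba UMIs, of 0.16 (SE 0.39, adjusted p = 0.866).

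**Figure D5:**
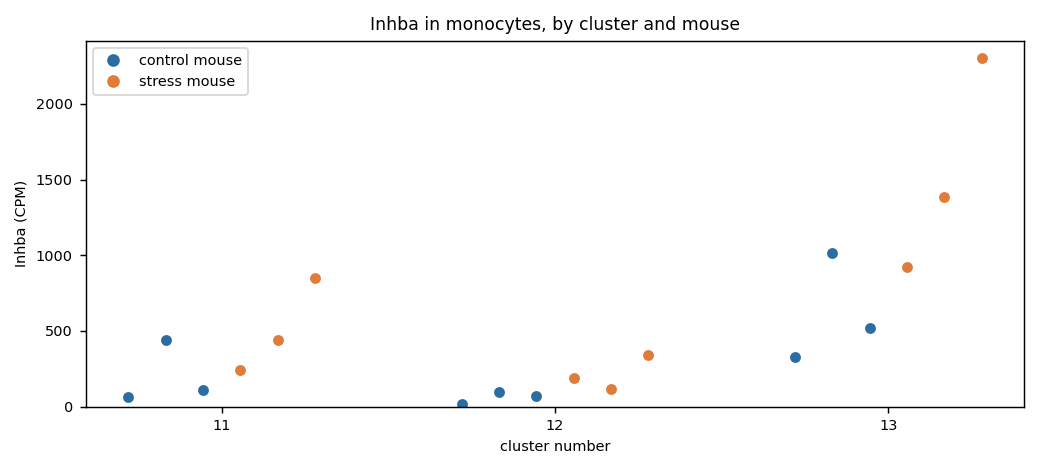
Inhba in CPM (y axis) in the 3 monocyte clusters (x axis), with 1 point per mouse, blue for control and orange for stress. Cluster 13 holds the highest values, up to 2303 CPM in stress mouse 3, and only in cluster 12 do the groups not overlap.

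HSCs were described without a test, from 23, 6 and 8 control cells and 26, 15 and 50 stress cells. In control mouse 2 the doublet caller marked 4 of its 6 cells, and it marked 0 HSCs in the other mice. Inhba had 260.1, 388 and 117 CPM in control against 770.0, 675 and 578 CPM under stress in HSCs, with every stress mouse above every control mouse. Tgfb3 had 3.33, 0 and 12.97 CPM in control against 87.4, 42.6 and 32.0 CPM under stress, on 1, 0 and 1 UMIs and on 37, 12 and 26 UMIs, and Tgfb2 had 83.4, 187 and 64.8 CPM in control against 234, 217 and 143 CPM under stress, with overlap at control mouse 2. The groups did not overlap for 3 of 10 members with at least 10 UMIs in HSCs, where 8.40% of genes were higher without overlap. These were Inhba, Tgfb3 and Tgfbr2, all higher in stress. Tgfbr2 had 127, 57.5 and 77.8 CPM in control against 142, 128 and 154 CPM under stress. The floor of 10 UMIs counts all mice together, and Tgfb3 met it only through the stress mice, so its place in this count is no support. Control mice 2 and 3 rest on 69610 and 77127 UMIs in all. Without called doublets control mouse 2 kept 2 cells and had 913 CPM of Inhba, so that those groups then overlapped, 281 CPM of Tgfb2 and 176 CPM of Eng.

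No receptor or coreceptor passed the test in ECs, where Tgfbr2, Eng and Tgfbr3 were highest. Tgfbr2 had 229.7, 339 and 278 CPM in control against 288, 374 and 382 CPM under stress and a log2 fold change of 0.28 (SE 0.17, edgeR adjusted p = 0.480). Eng had a log2 fold change of 0.25 (SE 0.17, edgeR adjusted p = 0.494) and Tgfbr3 of 0.30 (SE 0.14, adjusted p = 0.365), with the EC values given above. For all 3 genes the groups overlapped, and 0 of the 9 members tested in ECs had groups apart, where 22.8% of genes did. By cluster, all stress mice were above all control mice in 2 of 7 EC clusters for Tgfbr2, 2 for Tgfbr3 and 1 for Eng. They were all below in 0 clusters for these 3 genes. For Tgfbr2 the 2 were cluster 16, described above, and cluster 15, with median depths of 858 to 1456.5 UMIs over the mice. In clusters 2, 8 and 18 the groups overlapped for Tgfbr2. Of the other members, Acvrl1 was above in 2 clusters, Tgfb2, Tgfb3 and Tgfbr1 in 1 each, and Inhba was below in 1. The clusters share mice, and the share of genes in each was not computed.

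Acvrl1 had 12.9, 16.0034 and 14.1 CPM in control against 14.0, 18.4 and 20.5 CPM under stress in ECs (log2 fold change 0.27, SE 0.17, edgeR adjusted p = 0.483). Tgfbr1 had 0.06 (SE 0.10, adjusted p = 0.797) and Smad7 -0.12 (SE 0.18, adjusted p = 0.778). The 9 EC tests had no unadjusted p under 0.05 in edgeR, where 2205 of 14090 genes had one. DESeq2, with 421 genes past the threshold in ECs against 30 for edgeR, called 0 members there as well. The median mitochondrial share of ECs was 1.92%, 2.66% and 1.95% in control and 2.80%, 3.66% and 2.77% in stress mice. With 3 mice per group and these standard errors, EC changes of this size could not be told from the spread between mice.

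In monocytes Acvrl1 had a log2 fold change of -0.10 (SE 0.20, edgeR adjusted p = 0.856), Tgfbr1 of -0.08 (SE 0.13, adjusted p = 0.834) and Eng of 0.20 (SE 0.20, adjusted p = 0.700). In B cells Tgfbr1 had 61.7, 51.9 and 48.3 CPM in control against 106, 129 and 58.6 CPM under stress and a log2 fold change of 0.93 (SE 0.31, edgeR adjusted p = 0.291), and stress mouse 3 lay among the control mice. Smad7 in NK/T cells had -0.09 (SE 0.17, edgeR adjusted p = 0.890) and Tgfbr2 there -0.28 (SE 0.17, adjusted p = 0.534). In NK/T cells the groups did not overlap for 1 of 7 members, Tgfbr3, where 20.1% of genes did not. It had 22.5, 18.7 and 26.6 CPM in control against 11.3, 12.8 and 15.5 CPM under stress (edgeR adjusted p = 0.338). In M-MDSCs 1 of 7 members, Tgfbr2, was higher in stress without overlap, where 7.64% of genes were, and it had 15.5, 15.3 and 14.0 CPM in control against 34.9, 24.2 and 18.1 CPM under stress (edgeR adjusted p = 0.465). Called doublets made up 6 of 15, 58 of 108 and 65 of 83 M-MDSCs in control and 16 of 25, 29 of 50 and 45 of 69 in stress mice.

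Eng fell in tumor cells of stress mice, where its mean was 1.09% of that in ECs. It had 8.32, 7.07 and 8.05 CPM in control against 5.51, 6.27 and 7.07 CPM under stress, and control mouse 2 was just above stress mouse 3. The log2 fold change was -0.46 (SE 0.13, edgeR adjusted p = 0.0430). Without any single mouse other than control mouse 2 the call was lost, with log2 fold changes of -0.54 to -0.41 and adjusted p from 0.0597 to 0.147. It was likewise lost with scaling by total UMIs (log2 fold change -0.31, adjusted p = 0.160). The 5 EC markers, none of them at 0, summed to 10.5 to 16.0005 CPM in tumor cells of control mice and to 19.4 to 27.9 CPM in those of stress mice. Most of that difference was Pecam1, with means of 2.98 and 9.23 CPM, and Cdh5 had 2.45 and 2.63 CPM. Against the EC means, tumor cells had 1.04% of Pecam1, 0.354% of Cdh5, 0.298% of Stab2, 0.266% of Ptprb and 0.259% of Kdr. What part RNA from ECs has in the Eng level and difference of tumor cells was not tested. In tumor cluster 17 the 5 EC markers summed to 183 CPM, against 10.2 to 40.8 CPM in the other tumor clusters, and Eng had a mean of 20.6 CPM. Without this cluster, an alternative chosen after seeing the data, the log2 fold change was -0.47 (edgeR adjusted p = 0.0394).

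Tgfbr3 in tumor cells had 35.6, 15.8 and 29.9 CPM in control against 20.02, 14.4 and 14.7 CPM under stress. Control mouse 2 lay with the stress mice, and the log2 fold change of -0.86 (SE 0.31) did not pass (edgeR adjusted p = 0.0808). It passed with DESeq2 (adjusted p = 0.0178), with the replicate number as a block (edgeR adjusted p = 0.0130) and without control mouse 2 (edgeR adjusted p = 0.00672). In tumor cells the groups did not overlap for 3 of 10 members, Tgfb2 and Tgfbr2 higher and Eng lower, where 38.3% of all genes did not. Tgfbr2 had 11.8, 13.6 and 12.0 CPM in control against 13.7, 17.9 and 14.3 CPM under stress there, with a log2 fold change of 0.15 (SE 0.11, edgeR adjusted p = 0.354), and Smad7 had 0.06 (SE 0.10, adjusted p = 0.709).

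Of 49 other genes of the pathway, 9 of 269 tests passed, 5 higher and 4 lower in stress mice. In tumor cells 6 of 43 passed, 2 higher and 4 lower, a smaller share than the 21.4% of all genes that passed there (12.0% higher and 9.46% lower), and the 4 with the largest change are named. Itgb6, whose integrin frees latent TGF-beta, had 1.35, 0.606 and 1.24 CPM in control against 4.56, 3.44 and 2.83 CPM under stress (log2 fold change 1.62, SE 0.35, edgeR adjusted p = 0.0187). Fn1, the fibronectin gene and a target of the pathway, rose from a mean of 394 to 855 CPM (log2 fold change 0.97, SE 0.25, adjusted p = 0.0328). Ski, a repressor of SMAD proteins, fell by 0.58 on the log2 scale (SE 0.11, edgeR adjusted p = 0.0133), and Ltbp4, which binds latent ligand, by 0.50 (SE 0.13, adjusted p = 0.0318). Without control mouse 3 none of these 4 passed, with log2 fold changes of 1.74 for Itgb6, 1.06 for Fn1, -0.56 for Ski and -0.55 for Ltbp4 (adjusted p 0.0556, 0.0771, 0.0589 and 0.0816). Itgb6 was also lost without stress mouse 1 or 2 and without tumor cluster 9 (log2 fold changes 1.35, 1.69 and 1.14, adjusted p 0.0533, 0.0513 and 0.0590). Fn1 was lost without control mouse 1 or stress mouse 2 (log2 fold changes 0.87 and 1.10, adjusted p 0.0975 and 0.0534). Ltbp4 was lost under scaling by total UMIs (log2 fold change -0.36, adjusted p = 0.0959). It was also lost without any single mouse other than control mouse 2 (log2 fold changes -0.55 to -0.39, adjusted p 0.0623 to 0.103).

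Outside tumor cells 1 of 34 pathway genes passed in DCs, close to the background of 2.64% of all genes, 1 of 27 in M-MDSCs (background 0.561%) and 1 of 34 in NK/T cells (0.857%). None passed of 43 in ECs (0.213%), 39 in monocytes (0.122%), 18 in B cells (0.483%) and 31 in inflammatory myeloid cells (0%). Itgav, an integrin subunit that takes part in freeing latent ligand, had an edgeR adjusted p of 0.0758 in monocytes without the block. It passed with the replicate block (log2 fold change 1.077, edgeR adjusted p = 0.0254), a pairing inferred from these data. DESeq2 (adjusted p = 5.37e-05) and edgeR with no filter on low counts (adjusted p = 0.00611) called it as well. In ECs DESeq2 called 2 of 43 pathway genes, where it called 421 of 14090 genes in all. These were Col1a1 and Fn1 (log2 fold changes 3.50 and 0.70, DESeq2 adjusted p 0.0190 and 0.000896), where edgeR gave adjusted p of 0.248 and 0.102. Col1a1 is an HSC marker with a mean of 6914 CPM in HSCs, and tumor cells had 341 to 1250 CPM of Fn1. What part RNA from other cells has in these 2 changes was not tested. Pmepa1, a TGF-beta-induced inhibitor of the pathway, had 7.08, 22.2 and 20.9 CPM in control against 44.5, 49.3 and 56.7 CPM under stress in DCs (log2 fold change 1.53, SE 0.25, edgeR adjusted p = 0.00947). Thbs1, which activates latent TGF-beta, had 18.0, 35.7 and 31.5 CPM in control against 114, 124 and 160.3 CPM under stress in M-MDSCs (log2 fold change 2.11, SE 0.23, edgeR adjusted p = 0.00111), beside the doublet calls given above. Fn1 had 94.0, 146 and 159.8 CPM in control against 285, 243 and 345 CPM under stress in NK/T cells (log2 fold change 1.17, SE 0.20, edgeR adjusted p = 0.0167), while tumor cells of the same mice had 341 to 1250 CPM of Fn1. For these 3 genes every stress mouse was above every control mouse, as for 8.28% of all genes in DCs, 7.64% in M-MDSCs and 6.80% in NK/T cells. Without called doublets all 3 calls were lost, with log2 fold changes of 1.43 for Pmepa1 (adjusted p = 0.0785), 1.27 for Thbs1 (adjusted p = 0.725) and 0.89 for Fn1 (adjusted p = 0.386). Pmepa1 was also lost without stress mouse 3 (log2 fold change 1.44, adjusted p = 0.0541). Fn1 was lost without control mouse 1 or stress mouse 1 or 3 (log2 fold changes 1.02, 1.15 and 1.04, adjusted p 0.0929, 0.0627 and 0.0525).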

How the data were processed

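Liver tumor tissue of 3 control and 3 stress mice was sequenced as 10x Genomics single-cell libraries. The authors deposited unnormalized UMI counts of each gene in each cell, and a table with the mouse, cluster and cell type of each annotated cell. The submitters' processing notes name Cell Ranger, Seurat and mm10, and the matrix headers give Cell Ranger 9.0.0 for control and 7.1.0 for stress libraries. The gene annotation behind the counts is not given in the sources used here, and gene positions were taken from GENCODE M21 (GRCm38). Per mouse, 68.3% to 76.7% of cells had the same UMI total in that table as in the matrix, the largest gap was 87 UMIs, and the matrices were used.

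All annotated cells were kept. Doublets were called per library with Scrublet in scanpy 1.11.5 (Python 3.11.15) and left out only in an alternative. The UMIs of each cell type were added up within a mouse. Types with at least 10 cells in each mouse were compared by edgeR (version 4.0.16, under R 4.3.3, with filterByExpr, TMM, the quasi-likelihood test, Benjamini-Hochberg over all genes of that type, threshold 0.05), after the step was tested on simulated data. In counts simulated from the EC sums it recovered 8% of 1.5-fold changes, 52% of 2-fold and 99% of 4-fold, with 11 false calls. Nothing in the labels says more about the mice than their group and number. The p-values set the group difference, which goes along with the Cell Ranger version, against the spread between these mice with 1 library each. CPM was computed on the summed counts without TMM factors. Likeness used log2(CPM + 1) and genes with a mean of at least 10 CPM. For shares of cells, each cell with at least 1000 UMIs was thinned to 1000. Promoters came from RefSeq (GRCm38.p6), where 7 of 10 members matched and 6 were searched.

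The members and gene lists were chosen with earlier results of these data known. All members are named with their levels. Fold changes are given for members tested in ECs, for each member in the 2 tested cell types with its highest mean, and for tests past the threshold, and pathway genes past the threshold are named up to 4 per cell type by size of change. Other values of members were named after they were seen. Alternatives were RLE normalization, DESeq2 1.42.0, no filter on low counts, the replicate number as a block, no called doublets, ECs without cluster 15, CPM of pooled counts, and each mouse left out. Scaling by total UMIs and leaving out tumor cluster 9 or 17 or EC cluster 16 were added after the data were seen. Same-numbered control and stress mice deviated together in monocytes, where all 3 correlations of deviations from the group means were over 0.1 (0.476, 0.422 and 0.146). In each of the other 7 tested types at least 1 pair was below 0.1, although pairs 1 and 2 reached 0.571 and 0.434 in ECs and 0.496 and 0.39 in tumor cells, and pairs 1 and 3 reached 0.665 and 0.482 in inflammatory myeloid cells. The labels name no shared litter or day, so any pairing was inferred from these same data.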

Additional observations from a re-analysis of the deposited data

Results flagged for a closer look

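Barcodes that the annotation left out were not used in any comparison and still held UMIs of the 10 genes. These 2580 of 61374 barcodes carried 39614511 UMIs in all, of which 16236 were of the members. Eng stood at 16.4 CPM there, Inhba at 51.3 CPM, Tgfb1 at 39.2 CPM and Tgfb2 at 1.24 CPM, and Smad7 gave 8528 of the UMIs.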

How the results depend on the processing

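Over all tested cell types 3 member tests passed. The number was 3 with RLE normalization, without called doublets and without EC cluster 15 or 16 or tumor cluster 9 or 17, 4 with DESeq2, without a filter on low counts or under a replicate block, 1 to 4 without a single mouse, and 1 with scaling by total UMIs. Tgfb2 in tumor cells passed in each of these. The added call was Tgfbr3 in tumor cells with DESeq2 and under the block. Without the filter it was Inhba in B cells (edgeR adjusted p = 0.0249), on 97 UMIs in all. Pathway genes passed in 9 tests, against 18 with DESeq2, 26 with no filter on low counts, 20 with that block, 9 with RLE normalization, 7 without called doublets, 6 with scaling by total UMIs, 8 or 9 without single clusters and 3 to 17 without a single mouse. Under the block the Tgfbr3 change in tumor cells also passed, and among the named member changes it altered no other call. In monocytes, where same-numbered mice deviated together, 205 genes passed with the block and 15 without it. No member did in either fit, while the pathway gene Itgav passed with the block and not without it. The block raised the count of genes in every other tested type as well, from 30 to 131 in ECs and from 4041 to 5088 in tumor cells.

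Of the named fold changes of members, 7 values turned sign, all on leaving out 1 mouse and none past the threshold. The ranges over the 6 fits were -0.26 to 0.063 for Acvrl1 and -0.82 to 1.35 for Tgfb3 in monocytes, -0.10 to 0.69 for Inhba and -0.29 to 0.023 for Smad7 in ECs, and -0.25 to 0.068 for Smad7 in NK/T cells. Among them Tgfb3 in monocytes was -0.45 without control mouse 2, -0.04 without control mouse 3 and -0.82 without stress mouse 1. Counts of all genes past the threshold depended on the tool and the mice. In ECs they were 30 with edgeR, 421 with DESeq2 and 3 to 46 without a single mouse, in monocytes 15, 180 and 3 to 64, and in tumor cells 4041, 4992 and 1191 to 5790. In inflammatory myeloid cells edgeR called 0 genes (365 at an unadjusted p under 0.05) and DESeq2 6. Scaling by total UMIs turned the 2258 higher and 1783 lower tumor genes into 2710 and 605, and the 224 and 54 of DCs into 125 and 80. It moved the median log2 fold change of all genes to -0.11 in B cells, -0.13 in DCs, -0.15 in inflammatory myeloid cells and 0.13 in tumor cells. The causes were not tested. Of 800 recomputed levels 23 moved by more than the spread between mice, all without called doublets. By the thinned share of cells the leading tested type was the same for 8 of 10 members, and B cells led for Tgfb3 and Tgfbr1. Genes with few UMIs, above all Tgfb3, Acvrl1 outside monocytes and ECs, and every gene in HSCs and neutrophils, are limited by counts, and all group comparisons by 3 mice per group.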
